A study of Mus musculus with 5 samples.

Results

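The comparison described here sets 2 arrays of B9 cells kept with vemurafenib against 2 arrays of the same cells kept with PLX7904, 4 of the 5 arrays of the series. B9 is a mouse line of a cutaneous squamous cell carcinoma with the genotype HRAS-Q61L, and every culture in the comparison carries that genotype. Members were chosen by the treatment label alone (PLX4032 (vemurafenib) or PLX7904), and the vehicle array was not used. Both compounds were given at 1 µM for 17 h, so that they are compared at matched dose and time, as 1 pair. Features were all probe sets with exactly 1 gene symbol, which stood for 18194 genes. For each gene the probe set with the highest mean signal was used, and 10902 genes passed a minimum mean signal of 46.9. The limits of the model are that it is 1 carcinoma line in culture, that each group has 2 arrays, and that the labels name these biological replicates and give no further detail of how the cultures were kept apart. P-values therefore measure the spread between these arrays, which may be technical. With the vehicle left out, a transcript higher with vemurafenib cannot be told apart from one lower with PLX7904.

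RAS proteins that are locked in the active state switch on RAF kinases, which phosphorylate MEK, which in turn phosphorylates ERK. Vemurafenib blocks mutant BRAF, but in cells with active RAS it can bind a RAF protein within a dimer and raise the activity of its partner, an effect called paradoxical activation of the pathway. PLX7904 belongs to the BRAF inhibitors described as paradox breakers, which are meant to avoid that effect. ERK output is usually read from transcripts that ERK induces within hours, among them its own phosphatases and other feedback inhibitors, transcription factors of the AP-1 and EGR families, and ligands of the EGF receptor. In squamous skin tumours the same pathway is known to influence proliferation, keratinocyte differentiation, adhesion to the basement membrane and secreted proteases and cytokines.

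Transcripts of ERK output, EGF family ligands, laminin and its receptor, cornified envelope proteins and 8 of 15 interleukins and related cytokines were higher with vemurafenib. Transcripts of DNA replication and mitosis, the ID genes Id1, Id2 and Id3, and the secreted factors Sostdc1 and Ccl2 were lower. Relative to PLX7904, vemurafenib gave 723 genes with higher and 737 with lower signal at an adjusted p under 0.05 (limma's moderated test with Benjamini-Hochberg adjustment), and such genes are referred to as called. That is 13.4% of the genes tested, 6.63% called higher and 6.76% called lower, against which every count of a gene group below should be read. A change of at least 2-fold was found for 77 of the higher and 60 of the lower genes. The arrays of the 2 groups did not overlap for any called gene, which also held for 55.9% of all genes tested. Over all genes tested the median log2 difference was -0.04 and the median absolute log2 difference was 0.17.

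The arrays of a group resembled each other more than those of the other compound. Across the genes tested, log2 signals correlated at r = 0.991 between the vemurafenib arrays, at 0.989 between the PLX7904 arrays and at 0.981 to 0.983 between the groups; genes are not independent replicates. Array medians of the signal ran from 44.1 to 51.9. Keratinocyte identity was plain on every array: all 14 markers listed for the carcinoma keratinocyte lineage passed the minimum signal. Their summed signal was 154100 to 155100 with vemurafenib and 137700 to 142500 with PLX7904. That sum is not a measure of keratinocyte identity alone, since the list also holds the simple epithelial keratins Krt8 and Krt18. Krt18 read 23791 and 23145 with vemurafenib against 16992 and 16525 with PLX7904. Krt5 read lower with vemurafenib, and the groups of Krt14 overlapped. Of the 14 markers, 6 were called higher and 1 lower, with 3 higher where probe sets of the suffix x, s or a were left out. The 7 endothelial markers lay below the minimum, and 2 of 9 immune markers passed it, with a summed signal of 320 to 360 on all 4 arrays. Of 8 fibroblast markers only Pdgfra passed, and the summed signal of the list was 395 to 438 with vemurafenib and 210 to 270 with PLX7904. Of 6 smooth muscle markers only Acta2 passed, with summed signals of 238 to 246 against 461 to 607. Of 7 melanocyte markers 2 passed, with summed signals that overlapped between the treatments, and of 9 hair follicle and sebocyte markers 2 passed, with sums of 647 to 741 against 1021 to 1171. No marker was at 0 on any array, since MAS5 gives every probe set a signal.

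Signal and scaling set how many genes were called. The dimmest 25% of the genes, with a mean signal up to 209, had a median log2 difference of -0.12 and 4.29% of them were called. Among genes from the median up to the brightest 2%, 15.9% and then 20.9% were called, and the brightest 2% had a median difference of 0.02. Centring each array on its median moved the median of all genes from -0.04 to 0.11, and 1231 genes were then higher and 290 lower, so that 80.9% of the calls were higher against 49.5% in the values as deposited. Without the intensity trend of the variance, 35 genes were called, 22 higher and 13 lower, all of them among the genes called with it. Leaving out replicate 1 of vemurafenib reduced the lower genes from 737 to 471.

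**Figure D1:**
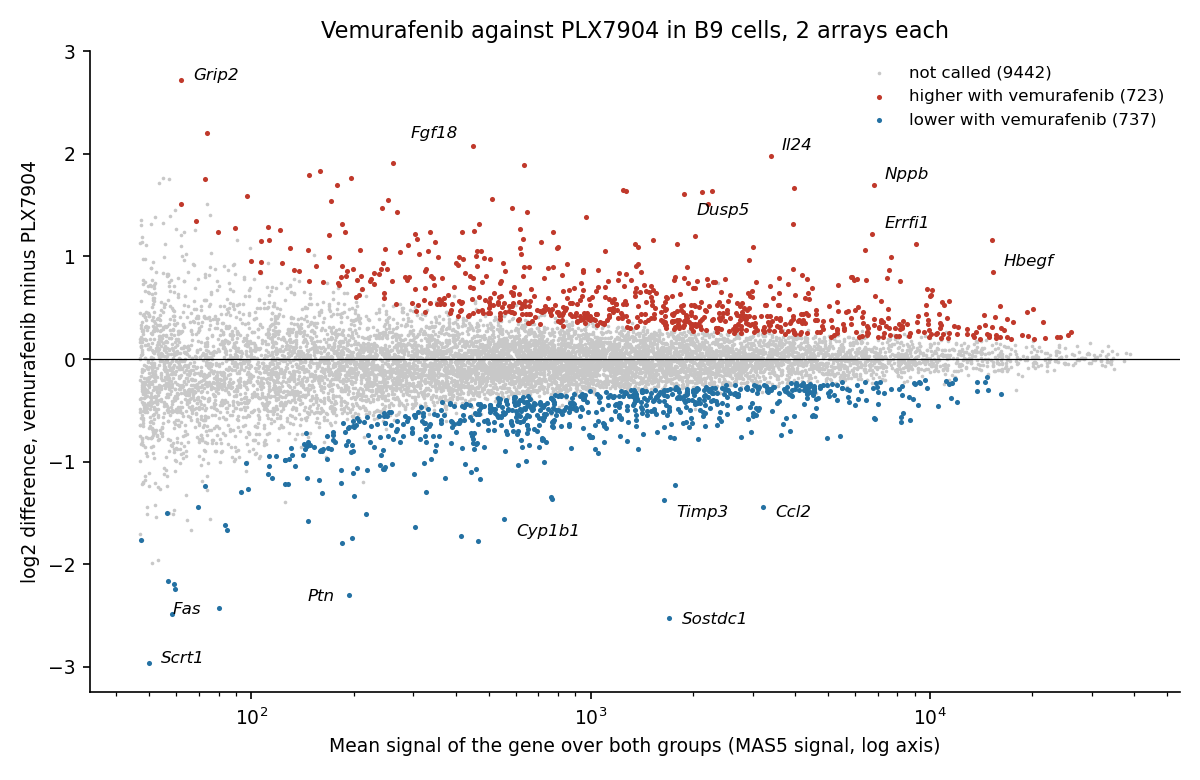
Each point is 1 of the 10902 genes tested, with the mean signal over both groups on a log axis and the log2 difference, vemurafenib minus PLX7904, on the other. Red points are the 723 genes called higher, blue points the 737 called lower and grey points those not called; called genes lie at smaller differences as the signal rises, and Sostdc1, Il24, Nppb and Ccl2 stand far from 0 at high signal.

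The plot of difference against signal shows both wings to be of similar size, with the widest scatter on the left, where signals are dim. Grip2 and Scrt1 mark the extremes of that dim region, and each passed the minimum signal only through the group where it was high. Nppb and Hbegf are examples of bright genes with a difference well outside the grey band.

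Of the 39 genes listed as ERK output, 36 were tested. With vemurafenib 21 of them were higher and 0 lower, and the median log2 difference of the 36 was 0.37, against -0.04 for all genes. The largest difference was that of Dusp5, a nuclear phosphatase that inactivates ERK and is itself induced by ERK. Dusp5 read 2773 and 2893 on the vemurafenib arrays and 957 and 897 on the PLX7904 arrays. The groups lay far apart, and Dusp5 was 3.05-fold higher with vemurafenib (95% interval 2.68 to 3.47, adjusted p = 1.67e-06). Egr1, a zinc finger transcription factor of the immediate early response, read 1327 and 1462 against 607 and 464. Its arrays did not overlap either, and it was 2.62-fold higher (2.15 to 3.19). Errfi1, also called MIG6, which binds and inhibits the EGF receptor kinase, read 9689 and 9204 against 4138 and 4001 and was 2.32-fold higher (2.10 to 2.56). Dusp5 and Errfi1 were the only members of the list that were also called without the intensity trend, where 21 members had an unadjusted p under 0.05 in the higher direction and 0 in the lower.

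Of the 36 members, 30 had a difference above 0. Plaur, the urokinase receptor, read 5753 and 5207 with vemurafenib and 3282 and 3074 with PLX7904 (1.72-fold). Klf6, a Kruppel-like factor, was 1.66-fold higher, Epha2, an ephrin receptor kinase, 1.52-fold, and Phlda1, a pleckstrin homology protein induced by growth factors, 1.44-fold. Dusp6, the cytoplasmic ERK phosphatase most often used as a readout of the pathway, read 8619 and 8792 against 6881 and 7204. Its difference was 1.24-fold (1.13 to 1.36), well below that of Dusp5. Ier3, an immediate early gene, was among the brightest members at 28961 and 27863 against 24173 and 23064, a 1.20-fold difference whose call ended without the filter on signal.

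Other textbook readouts of ERK showed no call. Ccnd1, which encodes cyclin D1, read 14763 and 15463 with vemurafenib and 14872 and 14082 with PLX7904, with a log2 difference of 0.06 (95% interval -0.06 to 0.19). Its groups overlapped, and the other probe sets of the gene gave 0.07 and 0.13. Myc, a transcription factor of cell growth, had a log2 difference of -0.14 (-0.32 to 0.04). The ETS factors Etv4 (0.14, -0.16 to 0.43) and Etv5 (-0.22, -0.48 to 0.04) were not called, nor were the RAS pathway inhibitors Spred1 (-0.05, -0.23 to 0.12) and Spred2 (-0.03, -0.18 to 0.13). The intervals leave room for values up to 1.14-fold higher for Ccnd1 and up to 1.17 times lower for Spred1 and 1.14 times lower for Spred2, so these differences, if any, were small beside that of Dusp5.

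The feedback inhibitors of ERK were not uniform. Of 20 tested, 8 were higher and 0 lower (2 lower without replicate 1 of PLX7904), with a median log2 difference of 0.17. Dusp14, another dual-specificity phosphatase, read 1892 and 1724 against 997 and 898 and was 1.91-fold higher (1.65 to 2.21). Dusp1, a phosphatase of JNK, p38 and ERK, was 1.44-fold higher, and Rasa1, a GTPase-activating protein for RAS, 1.31-fold. Among the Sprouty proteins, inhibitors of receptor tyrosine kinase signalling, Spry2 read 1729 and 1885 against 960 and 1041, a 1.80-fold difference (1.57 to 2.08). Spry2 lost its call with the mean of its 2 probe sets (log2 0.37). Spry1 read 137 and 124 against 149 and 170 (log2 -0.28, interval -0.73 to 0.17), and Spry4 was too dim for a narrow interval (-0.26, -1.50 to 0.98).

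Of 23 tested genes of the AP-1 and EGR transcription factors and their partners, 11 were higher and 0 lower, and 20 had a difference above 0. Fos read 1383 and 1161 with vemurafenib against 769 and 833 (1.58-fold, 1.34 to 1.87). Its dimerisation partner Jun read 2094 and 1932 against 1418 and 1255 (1.51-fold). Fosl1, the FOS-like protein FRA1, was 1.43-fold higher and Maff, a small MAF factor, 1.40-fold. Egr3 read 334 and 339 against 143 and 174, which is 2.11-fold. Its other probe set, with a signal of 65.9, read the opposite way at a log2 difference of -1.43, and the mean of both was -0.18. The 11 calls became 7 without replicate 1 of PLX7904, without the filter on signal and with the mean of all probe sets.

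**Figure D2:**
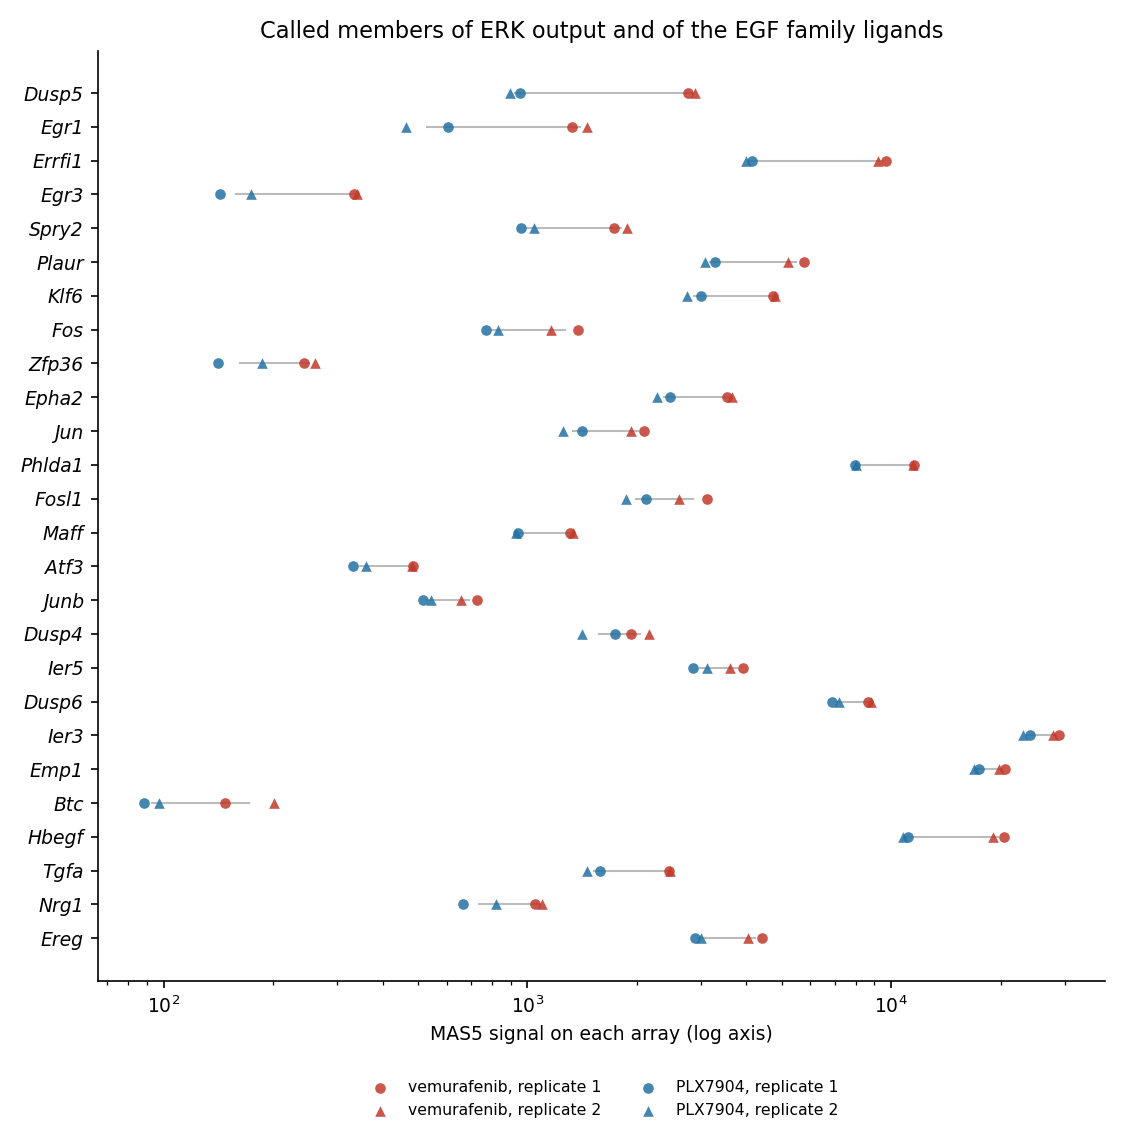
Signal of each array, on a log axis, for the called members of ERK output and of the EGF family ligands; circles are replicate 1 and triangles replicate 2 of vemurafenib (red) and PLX7904 (blue), and a grey line joins the group means. In every row both red symbols lie to the right of both blue symbols, with the widest gap for Dusp5 (2773 and 2893 against 957 and 897) and a narrow one for Dusp6 (8619 and 8792 against 6881 and 7204).

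The plot of called ERK output members and ligands, by array, holds only genes that were called, so the separation of its symbols restates the calls. What it adds is the scale: the difference of the bright gene Ier3 is narrow beside those of Dusp5, Egr1 and Errfi1. That of Hbegf, also bright, is wider than that of Ier3.

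Promoters are shown for members that carry a CArG box, the site that serum response factor reads together with ETS factors phosphorylated by ERK. RefSeq promoters of GRCm38.p6, from 250 bases before to 50 bases after a gene's start, were found for 26 of the 36 members. A CArG box on either strand was present in 2 of the 26 (7.69%), against 1.55% of the 8882 genes tested that have a promoter and 1.63% of all 32851 promoters. Both genes, Dusp5 and Zfp36, were called higher. Zfp36, an RNA-binding protein that destabilises cytokine messages, read 243 and 261 against 141 and 186 (1.54-fold, adjusted p = 0.0499). That call ended without replicate 1 (log2 0.67) or replicate 2 (0.57) of vemurafenib and without replicate 1 of PLX7904 (0.43), as well as without the filter on signal, with all 5 arrays in the fit and where p-values were adjusted over more tests or fitted on means of probe sets. The AP-1 motif TGANTCA, on either strand, was present in 3 of the 26 promoters (11.5%), against 6.36% of genes tested. A match describes these letters only, not a bound site. Capitals mark the CArG boxes, which start at positions -82 and -72 from the start of Dusp5 (chr19:53528895-53529194, plus strand) and at -58 from that of Zfp36 (chr7:28379179-28379478, minus strand).
Dusp5: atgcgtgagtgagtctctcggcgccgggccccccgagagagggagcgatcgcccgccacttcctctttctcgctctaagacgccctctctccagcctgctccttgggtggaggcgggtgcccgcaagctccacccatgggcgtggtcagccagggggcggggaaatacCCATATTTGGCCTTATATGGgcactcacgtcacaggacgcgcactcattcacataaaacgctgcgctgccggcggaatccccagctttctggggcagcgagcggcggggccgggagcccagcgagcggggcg
Zfp36: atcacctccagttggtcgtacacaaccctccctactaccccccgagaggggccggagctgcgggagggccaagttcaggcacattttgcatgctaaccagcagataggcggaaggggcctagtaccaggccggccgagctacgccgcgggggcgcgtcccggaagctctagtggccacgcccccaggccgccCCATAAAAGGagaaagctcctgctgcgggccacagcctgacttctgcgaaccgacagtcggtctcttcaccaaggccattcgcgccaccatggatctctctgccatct

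Ligands of the EGF receptor family, which act back on the cells that secrete them, were higher with vemurafenib for 5 of the 6 members tested, and the median log2 difference of the 6 was 0.62. Hbegf, the heparin-binding ligand, read 20418 and 19053 with vemurafenib and 11123 and 10799 with PLX7904. With groups this far apart at a bright signal, the difference of 1.80-fold had a narrow interval (1.65 to 1.96, adjusted p = 1.14e-05). Tgfa, transforming growth factor alpha, read 2457 and 2469 against 1589 and 1460 (1.62-fold, 1.43 to 1.83), but was not called on the mean of its 3 probe sets (log2 0.52). Ereg, epiregulin, read 4428 and 4038 against 2883 and 3002 (1.44-fold). Nrg1, a ligand of ERBB3 and ERBB4, read 1052 and 1099 against 664 and 820 (1.45-fold). Btc, betacellulin, was dim, at 147 and 201 against 88.4 and 97.4, and its 1.82-fold difference was less certain (1.27 to 2.62). The Btc call ended without replicate 2 of vemurafenib (log2 0.65), without replicate 1 (0.80) or replicate 2 (0.93) of PLX7904, without the filter on signal and with all 5 arrays in the fit. Nrg2 had overlapping groups (200 and 370 against 303 and 139).

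Receptors were called at about the share of all genes tested, 13% against 13.4%. Among 23 receptor tyrosine kinases tested, 3 were higher and 0 lower, with a median of 0.05. Leaving out replicate 1 of vemurafenib, or taking the mean of all probe sets, gave 1 call, and median centring gave 5; without replicate 2 of vemurafenib 2 were lower. Egfr, the EGF receptor, read 470 and 416 with vemurafenib and 386 and 461 with PLX7904 (log2 0.07, interval -0.23 to 0.36). Erbb2, its partner without a ligand of its own, read 246 and 253 against 300 and 294 (-0.25, -0.56 to 0.07). Pdgfra, a receptor for platelet-derived growth factor and a fibroblast marker, read 264 and 231 against 138 and 132 (1.81-fold). Its call ended without replicate 1 of vemurafenib (log2 0.76) and with the mean of its probe sets (0.82). Whether the shift of the fibroblast marker sum given above has a part in it was not tested.

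Components of the RAS-RAF-MEK-ERK cascade itself were called at 16.7%, against 13.4% of all genes tested. Of 18 tested, 3 were higher and 0 lower, with a median of -0.05. Braf, the kinase that both compounds were made against, read 372 and 324 with vemurafenib and 346 and 430 with PLX7904 (log2 -0.15, interval -0.48 to 0.17). Araf read 453 and 386 against 496 and 487 (-0.23, -0.51 to 0.04), and Nras 2679 and 2950 against 2543 and 3144 (-0.01, -0.23 to 0.22). Only the groups of Araf did not overlap, and none of these was called. Map2k1, which encodes the kinase MEK1, read 4010 and 3731 against 3020 and 2758 (1.34-fold, 1.19 to 1.51). Grb2, the adaptor between receptors and SOS, was 1.41-fold higher, and Rras2, a RAS-related GTPase, 1.28-fold. The calls of Grb2 (log2 0.29) and Rras2 (0.27) ended with the mean of their probe sets, which gave 1 call in the list, and median centring gave 5.

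Genes of the cell cycle were lower with vemurafenib than with PLX7904. Of 47 genes of G2/M and mitosis, 38 were lower and 0 higher, all 47 had a difference below 0, and their median log2 difference was -0.44. Among the G1/S and DNA replication genes, 39 were tested and 25 were lower and 0 higher, with a median of -0.36. Single differences were modest: no member of either list reached 2-fold. Without the intensity trend no member was called, although 39 and 25 members had an unadjusted p under 0.05 in the lower direction and 0 in the higher. Median centring, which raises every difference, gave 14 lower calls in G2/M and 9 in G1/S. The mean of all probe sets gave 25 and 15, and leaving out probe sets with the suffix x, s or a gave 25 in G2/M.

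Among the mitotic genes, Nusap1, a protein that bundles spindle microtubules, read 1546 and 1504 with vemurafenib and 2649 and 2595 with PLX7904. It was 1.72 times lower (95% interval 1.52 to 1.94) and was not called on the mean of its 2 probe sets, although the difference was larger there (log2 -0.93). Kif11, the kinesin that pushes spindle poles apart, read 674 and 826 against 1228 and 1312 (1.70 times lower, 1.43 to 2.02, adjusted p = 0.00164). Ccna2, cyclin A2, read 2303 and 2174 against 3509 and 3845 (1.64 times lower). None of these had overlapping groups. Mki67, the proliferation antigen Ki-67, read 1714 and 1662 against 2565 and 2761 (1.58 times lower, 1.39 to 1.78). Cdc20, an activator of the anaphase-promoting complex, was 1.49 times lower, and Spc24, a kinetochore subunit, 1.59 times lower. The smallest differences were those of Bub3, a checkpoint protein (log2 -0.13, interval -0.27 to 0.01), and Dlgap5, a spindle protein (-0.15, -0.38 to 0.09), neither of which was called.

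Replication genes showed the same pattern with exceptions at the G1/S boundary. Tk1, thymidine kinase, read 1311 and 1284 with vemurafenib and 2376 and 2067 with PLX7904 (1.71 times lower, 1.48 to 1.96). Lig1, the ligase that joins Okazaki fragments, read 1032 and 1119 against 1692 and 1874 (1.65 times lower). Rfc4, a subunit of the clamp loader, was 1.63 times lower and Prim1, the primase, 1.55 times. By contrast, Ccne1 and Ccne2, the E cyclins that drive entry into S phase, had overlapping groups (770 and 544 against 494 and 746, and 1651 and 1507 against 1284 and 2004). Their log2 differences were 0.09 (-0.34 to 0.53) and -0.02 (-0.38 to 0.34). Pcna, the sliding clamp, read 21029 and 21503 against 24152 and 21912 and was not called (-0.11, -0.24 to 0.01), nor was the E2F family member E2f8 (0.18, -0.04 to 0.41).

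**Figure D3:**
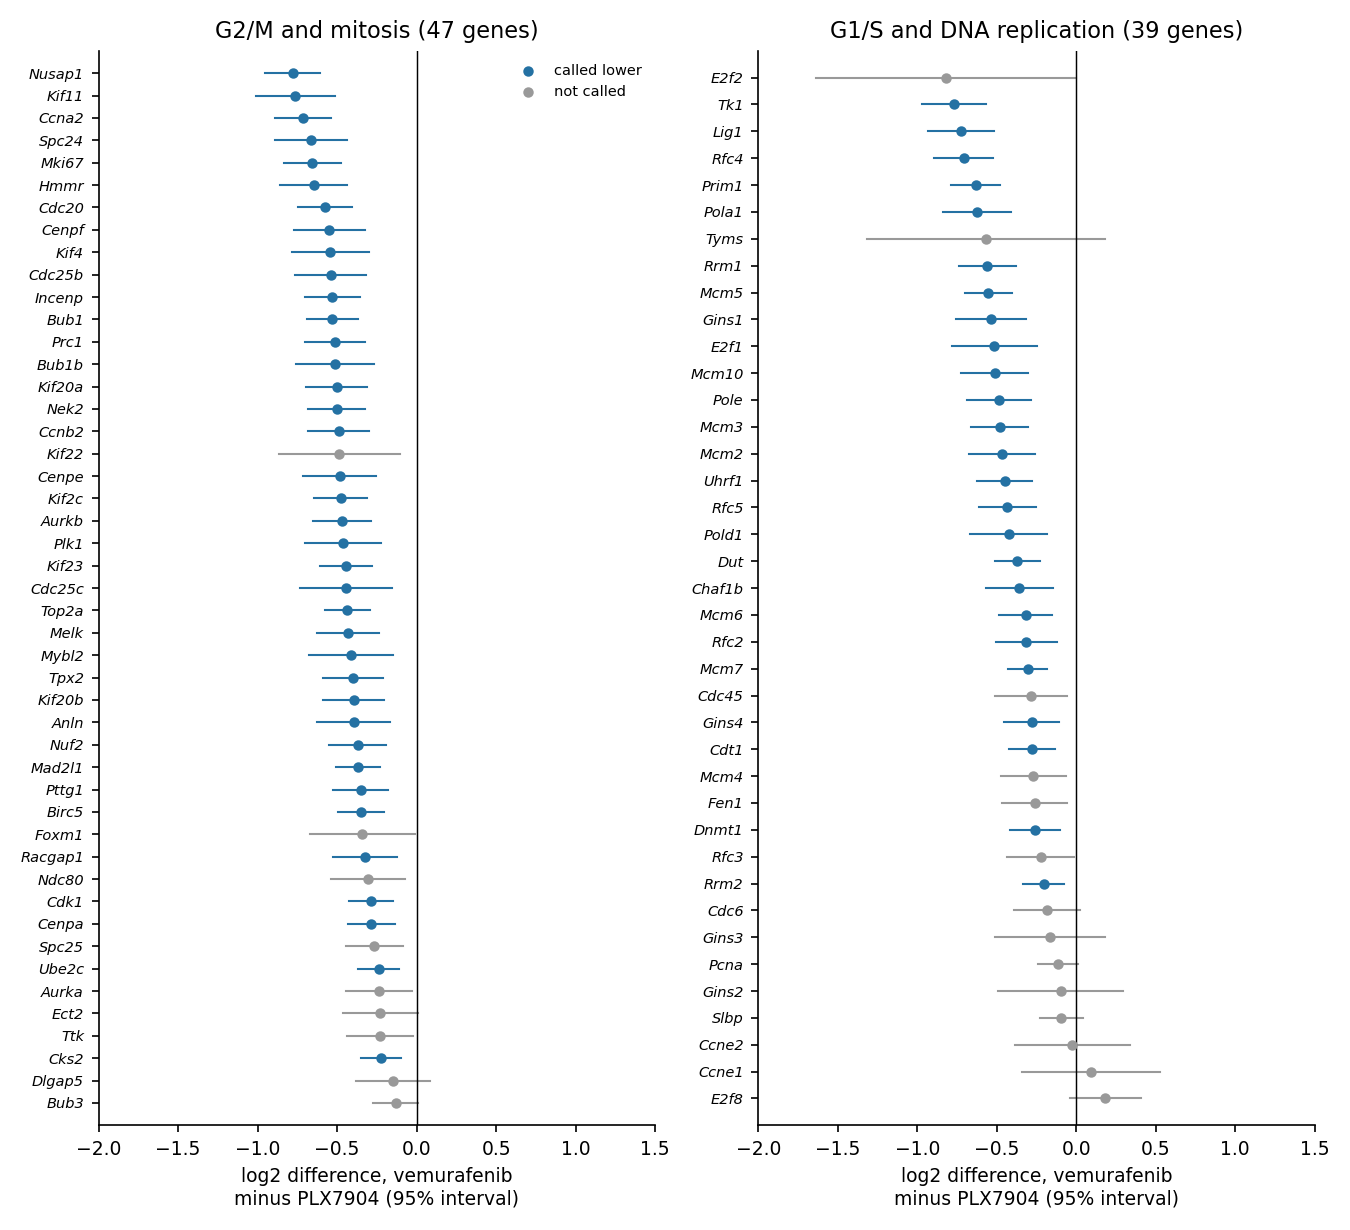
Log2 difference, vemurafenib minus PLX7904, with its 95% interval from the limma fit, for the 47 tested genes of G2/M and mitosis and the 39 of G1/S and DNA replication, ordered by difference. Blue marks the 38 and 25 genes called lower and grey those not called; all 47 points of the left panel and 37 of the 39 of the right panel lie below 0.

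The plot of cell cycle intervals shows that the genes not called are mostly those with small differences at the foot of each panel, together with a few of large difference and wide interval such as E2f2 and Tyms. The 2 points above 0 in the replication panel are Ccne1 and E2f8.

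Promoters of mitotic genes often carry the element TTTGAA, called CHR, which repressor and activator complexes of the cell cycle read, together with CCAAT boxes. Searched on both strands, TTTGAA was present in 26 of the 38 G2/M members with a promoter in the table (68.4%), against 13.9% of the genes tested and 17.9% of all promoters. CCAAT was present in 27 of the 38 (71.1%), against 42.9% and 37.4%. TTTGAA was in 19 of the 31 called members and in all 7 of the members not called, so its presence did not follow the call. The E2F-type motif TTTNNCGC was present in 15 of 32 G1/S promoters (46.9%), against 10.3% of genes tested, in 10 of 21 called members and 5 of 11 others. The promoters of Kif11 (chr19:37376132-37376431, plus strand) and Mki67 (chr7:135716330-135716629, minus strand) are shown with the element in capitals, for Kif11 as the reverse complement TTCAAA at -19 and for Mki67 at -116 and -98.
Kif11: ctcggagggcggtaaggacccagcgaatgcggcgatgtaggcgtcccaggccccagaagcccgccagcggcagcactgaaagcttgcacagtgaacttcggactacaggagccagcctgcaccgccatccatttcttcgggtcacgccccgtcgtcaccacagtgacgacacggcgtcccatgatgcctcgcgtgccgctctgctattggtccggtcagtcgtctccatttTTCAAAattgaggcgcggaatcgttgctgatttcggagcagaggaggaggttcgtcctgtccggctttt
Mki67: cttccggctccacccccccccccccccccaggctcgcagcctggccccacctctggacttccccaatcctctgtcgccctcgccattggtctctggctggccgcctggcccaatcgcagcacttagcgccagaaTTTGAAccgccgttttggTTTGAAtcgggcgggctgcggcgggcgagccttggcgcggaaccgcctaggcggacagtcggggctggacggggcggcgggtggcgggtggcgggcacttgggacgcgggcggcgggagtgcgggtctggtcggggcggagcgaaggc

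Regulators that hold back the cycle moved in both directions. Cdkn1a, the CDK inhibitor p21, read 3318 and 3240 with vemurafenib and 1151 and 1147 with PLX7904. Replicates were nearly identical and the groups far apart, at 2.85-fold (2.53 to 3.21, adjusted p = 1.67e-06), and Cdkn1a was called in every fit made, also without the intensity trend. Its second probe set, of like brightness, gave a log2 difference of 1.17 against 1.51. Of the 15 CDK inhibitors, G1 cyclins and their partners tested, it was the only one higher, and 3 were lower. Rbl1, the pocket protein p107, read 1227 and 1310 against 1847 and 2183 (1.58 times lower), with no call on the mean of its 4 probe sets (log2 -0.61). Cdkn2c, the INK4 inhibitor p18, was 1.36 times lower, and median centring ended that call (-0.30) and gave 1 lower call in the list. Cdkn1b, the inhibitor p27, was not called (log2 -0.17, interval -0.37 to 0.04), nor was Cdk4, a kinase of the G1 phase (-0.18, -0.34 to -0.02).

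Cdkn1a is also a target of p53, and p53 targets were called in both directions. Of 21 tested, 3 were higher, Cdkn1a among them, and 4 lower, and 16 had a difference below 0. The share called was 33.3%, against 13.4% of all genes tested. Whether p53 has a part in the difference of Cdkn1a was not tested. Mdm2, the ligase that degrades p53, read 1594 and 1656 against 939 and 1190 (1.54-fold), and Trp53inp1, a stress protein, 363 and 387 against 234 and 232 (1.6-fold). Averaged over a gene's probe sets, the log2 differences were 0.05 for Mdm2 and -0.27 for Trp53inp1. The Trp53inp1 difference rests on its brightest probe set, and its other probe set had a signal of only 7.40. For Mdm2, a probe set at a signal of 559.2 gave 0.578, beside 0.618 for the brightest. The dimmest Mdm2 probe set, at a signal of 13.15 and so below the minimum, gave -1.053. Fas, the death receptor, read 34.9 and 14 with vemurafenib and 122 and 150 with PLX7904 and is 1 of the 4 called lower. Its vemurafenib values lie below the minimum signal of 46.9, so that it passed the filter through the PLX7904 arrays alone and no fold is given. The Fas call ended without replicate 2 of PLX7904 (log2 -2.28). The 4 lower calls became 2 without replicate 1 of vemurafenib, without replicate 2 of PLX7904, with median centring and with the mean of probe sets, and that mean gave 1 higher call. Of 12 members of the BCL2 family tested, limma called 0, and 1 was higher and 3 lower at an unadjusted p under 0.05. Bcl2l11, the pro-apoptotic BIM, had overlapping groups (1702 and 1529 against 1464 and 2110, log2 -0.12, interval -0.44 to 0.19), as had Mcl1, a survival protein (0.02, -0.23 to 0.28). The other probe sets of Bcl2l11 gave log2 differences of -0.09, 0.14, 0.70 and 0.39, and those of Mcl1 ran from -0.20 to 0.32.

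Chaperones and folding enzymes of the endoplasmic reticulum were higher with vemurafenib. Of 22 tested, 9 were higher and 0 lower, 19 had a difference above 0, and the median was 0.19. Sdf2l1, a component of the chaperone complex, read 1589 and 1702 with vemurafenib and 1072 and 1024 with PLX7904 (1.57-fold, 1.37 to 1.80). Dnajb9, a cochaperone, read 1360 and 1344 against 880 and 926 (1.5-fold). Manf, a secreted protein induced by unfolded protein, read 11164 and 11300 against 8312 and 8212 (1.36-fold). Xbp1, the transcription factor of the unfolded protein response, was 1.38-fold higher but not called without the probe sets with the suffix x, s or a (log2 0.29). Without replicate 1 of vemurafenib 5 members were called.

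The endoplasmic reticulum stress element, searched as CCAAT (itself a CCAAT box) and CCACG with any 9 bases between them, was found on either strand in 9 of the 19 chaperone promoters in the table (47.4%), against 0.158% of genes tested and 0.119% of all promoters. It was present in 4 of the 8 called and in 5 of the 11 other members. Creld2, a secreted folding factor, read 2904 and 2969 against 1967 and 2259 (1.39-fold, 1.22 to 1.59). Its promoter (chr15:88819396-88819695, plus strand) is shown because it holds the element, in capitals, on the reverse strand from position -126.
Creld2: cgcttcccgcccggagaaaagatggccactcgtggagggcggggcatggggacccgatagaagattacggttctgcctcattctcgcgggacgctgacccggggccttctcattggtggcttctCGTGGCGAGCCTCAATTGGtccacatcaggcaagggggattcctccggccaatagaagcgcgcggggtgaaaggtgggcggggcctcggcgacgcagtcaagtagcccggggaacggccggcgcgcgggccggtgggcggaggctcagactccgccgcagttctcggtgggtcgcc

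Other stress and metabolic programmes were divided. Of 25 genes of amino acid stress under the factor ATF4, 2 were higher and 4 lower. The balance turned with median centring, to 4 higher and 1 lower, and the mean of probe sets gave 1 and 2; with 1 array left out, the counts ranged from 1 to 3 and from 2 to 4. Ppp1r15a, a phosphatase subunit that restores translation after stress, read 773 and 668 against 406 and 385 (1.81-fold, 1.51 to 2.17). Of 25 genes of glycolysis and hypoxia, 4 were higher and 0 lower. Ndrg1, a hypoxia-induced gene, read 3780 and 3963 against 1921 and 2032 (1.96-fold), Vegfa, the angiogenic growth factor, 1411 and 1601 against 980 and 1096 (1.45-fold), and Hk2, hexokinase 2, was 1.32-fold higher. Among 16 targets of the antioxidant factor NRF2, 2 were higher, including Osgin1 (1.73-fold), and 1 lower, with 1 to 4 and 1 to 2 when an array was left out. Housekeeping programmes gave no contrast: of 15 ribosomal protein genes 0 were called and 0 had an unadjusted p under 0.05, and of 25 genes of oxidative phosphorylation 0 were called and 1 had such a p, in the lower direction.

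The laminin that anchors basal keratinocytes, and its integrin receptor, were higher with vemurafenib. Lama3, the alpha chain of the laminin that basal keratinocytes secrete, read 12717 and 12149 with vemurafenib and 5664 and 5748 with PLX7904 (2.18-fold, 1.99 to 2.39, adjusted p = 1.67e-06). Lamb3, its beta chain, read 9008 and 8331 against 3961 and 4362 (2.08-fold, 1.86 to 2.33). Both chains were more than 2-fold higher, and their arrays were separate. Itgb4, the integrin subunit of the hemidesmosome, read 1893 and 1990 against 1364 and 1397 (1.41-fold), and its partner Itga6 19946 and 19643 against 15212 and 15517 (1.29-fold). The Lama3 value is that of its bright probe set (signal 9069); a second one, at a signal of 17.4, read -1.47, and the mean of both was -0.17.

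Of 16 genes of basal keratinocytes and the hemidesmosome tested, 9 were higher and 1 lower, with a median of 0.21. The mean of all probe sets gave 3 higher calls, and leaving out probe sets with the suffix x, s or a gave 4. The basal keratins differed from the laminin chains in this. Krt14 read 22491 and 21791 against 23714 and 21378 (log2 -0.02, interval -0.15 to 0.11). Its partner Krt5 read 10583 and 10654 against 12533 and 12450, 1.18 times lower. That call ended without replicate 1 (log2 -0.23) or replicate 2 (-0.24) of vemurafenib, without the filter on signal and with median centring (-0.09). Of 10 integrins, 5 were higher and 1 lower. Itga2, a collagen receptor subunit, read 683 and 567 against 265 and 335 (2.08-fold, 1.65 to 2.61), and Itgb1, the common beta subunit, was 1.37-fold higher with no call on the mean of its probe sets (log2 0.24), which gave 3 higher integrins. The lower integrin was not called without replicate 2 of PLX7904 or replicate 1 of vemurafenib.

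Genes of late keratinocyte differentiation were higher for part of their list. Of 30 tested, 11 were higher and 0 lower, with a median of 0.36. Trex2, a keratinocyte exonuclease, read 970 and 1032 with vemurafenib and 307 and 234 with PLX7904 (3.70-fold, 2.99 to 4.58). Sprr1a, a small proline-rich precursor of the cornified envelope, read 3275 and 3632 against 1195 and 1023 (3.11-fold, 2.68 to 3.61). Ivl, involucrin, read 1925 and 1823 against 813 and 943 (2.14-fold). The groups of these 3 genes were far apart. Crct1, a gene of the epidermal differentiation complex outside the list, read 376 and 452 against 123 and 92.7 (3.77-fold). Klk6, a kallikrein protease, was 2.23-fold higher at a dim signal, a call that ended without replicate 2 of vemurafenib (log2 1.02) and without the filter. The SPRR genes are a family of close copies, so their probe sets may share targets and their values are uncertain in that respect.

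Krt10 and Tgm1, which mark suprabasal differentiation, were not called. Krt10, the keratin of suprabasal cells, read 637 and 650 against 590 and 671 (log2 0.03, interval -0.21 to 0.27). Tgm1, the transglutaminase that crosslinks the envelope, read 956 and 1001 against 1018 and 977 (-0.03, -0.23 to 0.18). Among simple and wound keratins, 4 of 9 were higher and 0 lower. Krt18, a keratin of simple epithelia, read 23791 and 23145 against 16992 and 16525 (1.40-fold, 1.30 to 1.51), and its partner Krt8 was 1.25-fold higher. Krt19 was 1.55-fold higher and the wound keratin Krt16 1.36-fold. Sfn, the epithelial protein stratifin, read 4274 and 4094 against 2745 and 2376 (1.64-fold). Of 21 junction genes, 3 were higher and 1 lower (0 to 2 lower when an array was left out, 5 higher and 0 lower with median centring); Cldn4, a tight junction claudin, read 1054 and 1049 against 631 and 560 (1.76-fold).

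**Figure D4:**
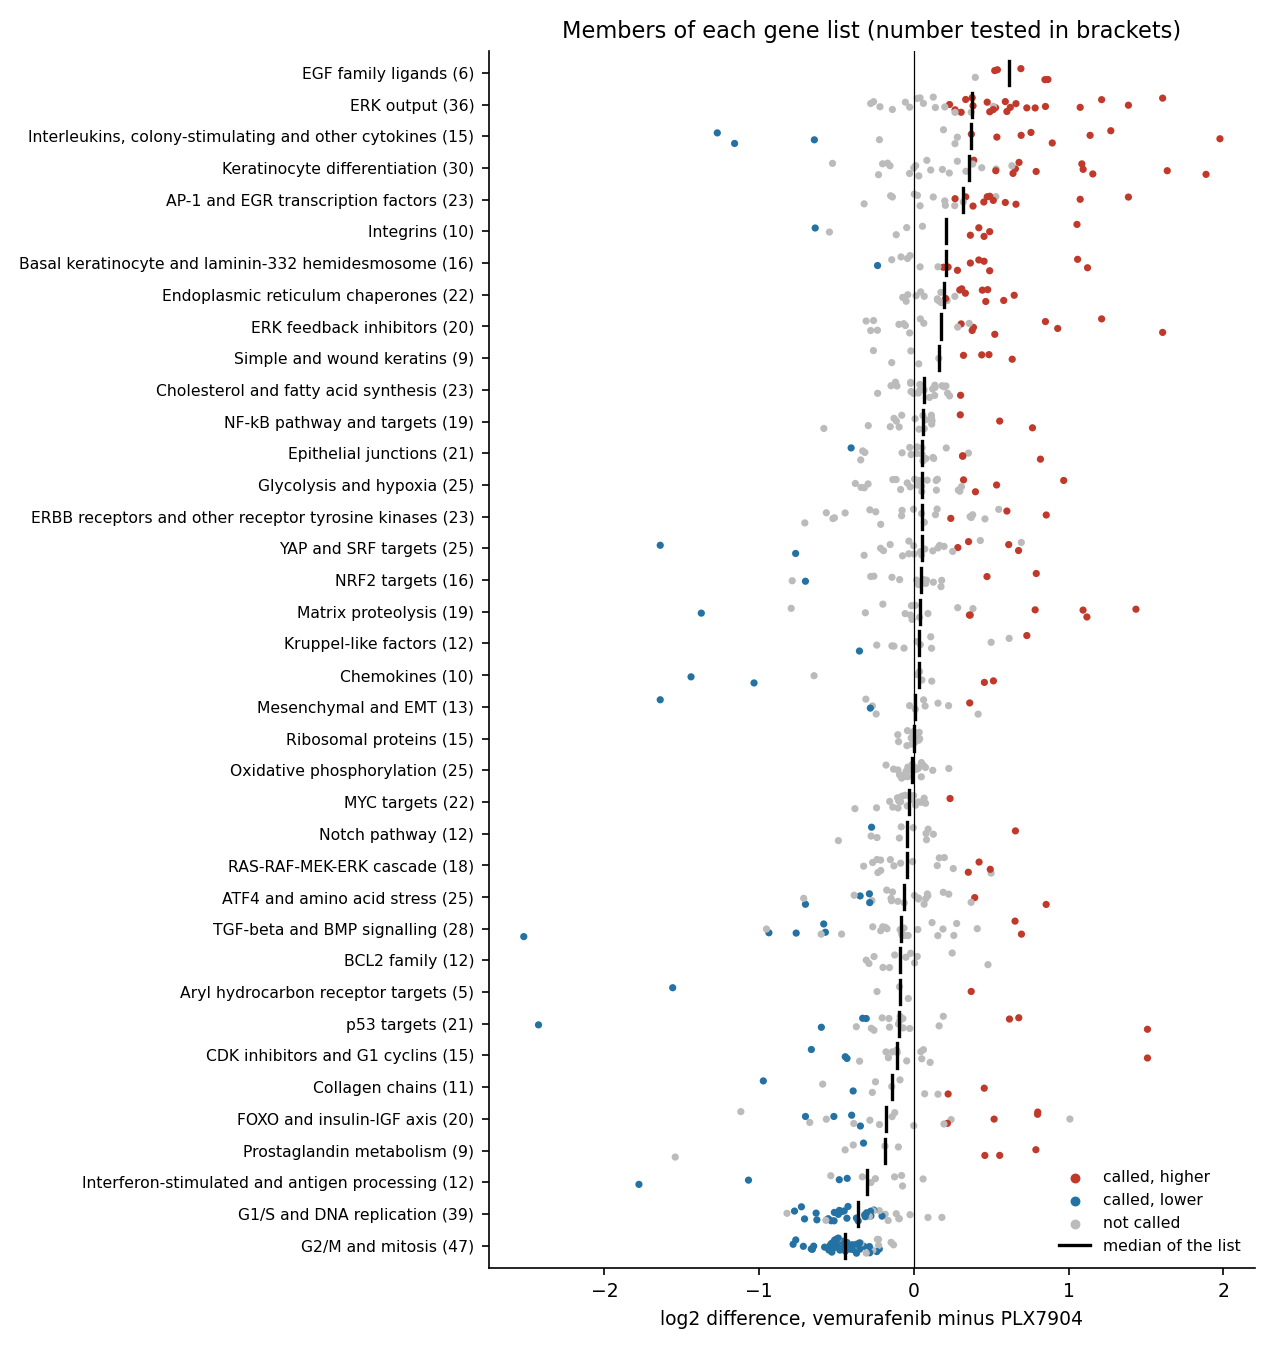
Log2 difference, vemurafenib minus PLX7904, of every tested member of the gene lists (points, red called higher, blue called lower, grey not called), with the list's median as a black bar and lists ordered by it. EGF family ligands lie at the top with a median of 0.62 and G2/M and mitosis at the foot with -0.44; the medians of the lists between them run from 0.37 to -0.36. Marker lists of cell types are not plotted.

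The plot of all lists shows that a list with a median near 0 can still hold genes far from it on both sides, as for chemokines and for TGF-beta and BMP signalling. Lists share genes, so a point such as Cdkn1a or Acta2 appears more than once.

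Several proteases that act on the matrix were higher with vemurafenib. Of 19 genes of matrix proteolysis tested, 6 were higher and 1 lower (2 lower without replicate 1 of PLX7904). Mmp10, stromelysin 2, read 881 and 1021 with vemurafenib and 333 and 365 with PLX7904 (2.71-fold, 2.26 to 3.24). Plau, the urokinase that Plaur binds, read 1705 and 1982 against 736 and 970 (2.17-fold, 1.78 to 2.65). Thus both the protease and its receptor were higher, with no overlap of arrays. Mmp1b, a matrix metalloproteinase, read 1109 and 1078 against 531 and 490 (2.14-fold). Since Mmp1b has a close copy in the mouse genome, its probe set may share targets. Among the inhibitors, Timp3 read 738 and 1119 with vemurafenib and 2362 and 2358 with PLX7904, 2.59 times lower (2.05 to 3.28). Its other 3 probe sets gave log2 differences of -1.0 to -1.46, beside -1.37. Timp1, in contrast, was 1.28-fold higher.

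**Figure D5:**
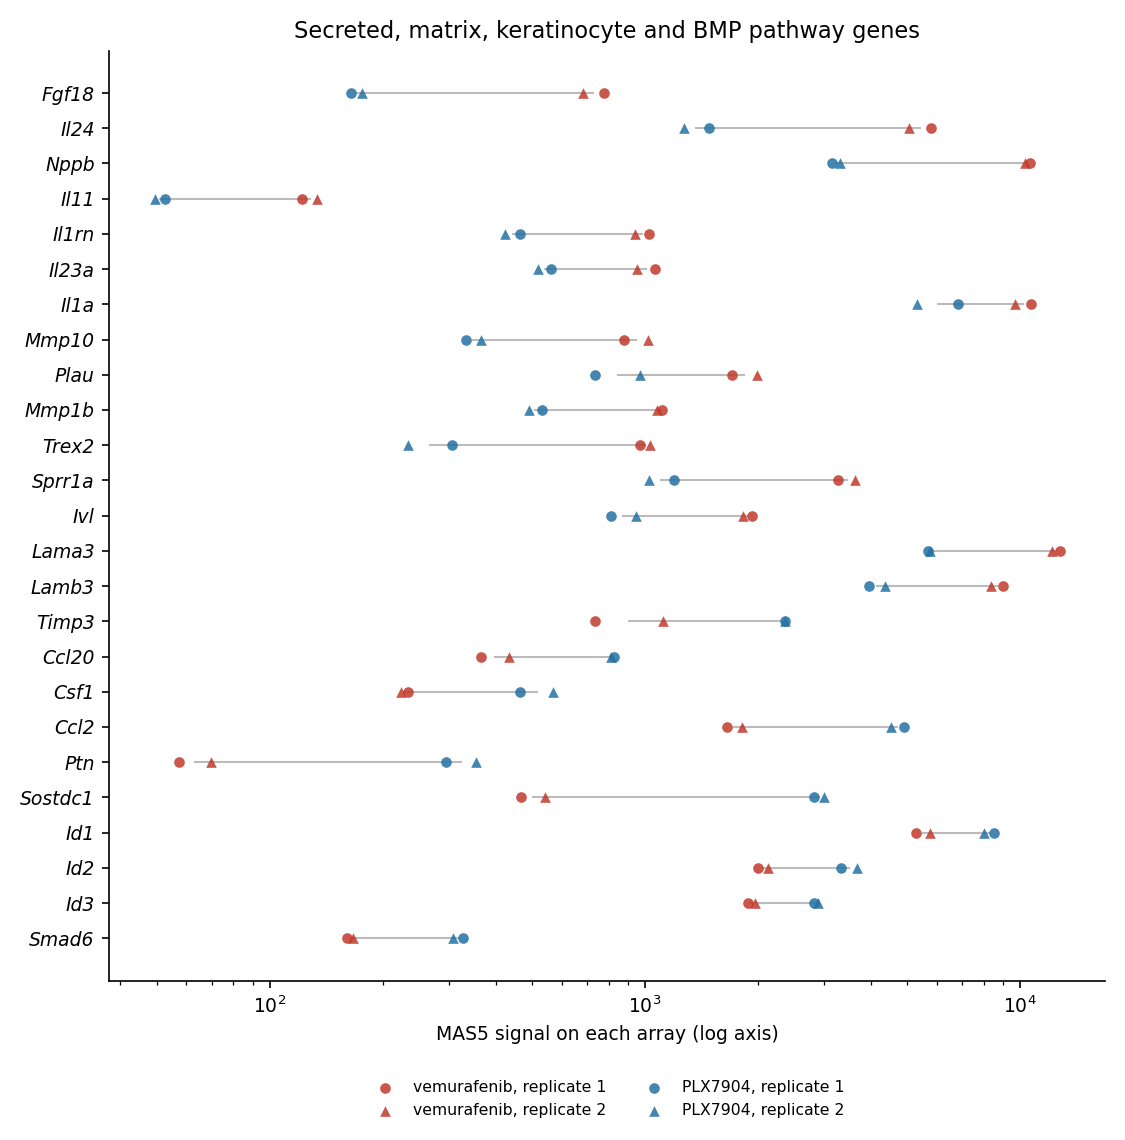
Signal of each array, on a log axis, for genes of secreted factors, matrix, keratinocyte differentiation and the BMP pathway that were called; symbols are as in the plot of ERK output. Red lies to the right of blue from Fgf18 to Lamb3 and to the left from Timp3 to Smad6, with the widest gaps between group means for Sostdc1 (467 and 542 against 2812 and 3000) and Ptn (57.3 and 69.8 against 295 and 355).

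The plot of secreted and matrix genes, again limited to called genes, shows gaps wider than the distance between the symbols of a group, narrowest relative to it for Il1a and Timp3, and dim genes such as Il11 and Ptn at the left.

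Interleukins and related cytokines changed in large part: of 15 tested, 8 were higher and 3 lower. Il24, a cytokine of the IL-10 family made by keratinocytes, read 5797 and 5046 with vemurafenib and 1480 and 1267 with PLX7904 (3.94-fold, 3.40 to 4.57, adjusted p = 1.65e-06). Il1rn, the interleukin-1 receptor antagonist, read 1027 and 940 against 465 and 424 (2.20-fold). Il23a, a subunit of interleukin-23, read 1063 and 955 against 562 and 519 (1.86-fold). Il1a, interleukin-1 alpha, read 10704 and 9689 against 6823 and 5317 (1.69-fold). So the agonist and its antagonist were both higher. Il11 read 122 and 134 against 52.5 and 49.3 (2.42-fold), called also without the intensity trend but not without replicate 2 of vemurafenib (log2 1.21) or without the filter. Without replicate 2 of vemurafenib, or without the filter, 5 members were called higher.

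Other cytokines were lower, and the 3 called were Csf1, Tslp and Il18, a cytokine of the interleukin-1 family. Csf1, the macrophage colony-stimulating factor, read 233 and 224 against 463 and 570 (2.23 times lower, 1.79 to 2.78). A second Csf1 probe set gave a log2 difference of -0.89, while another, at a signal of 36.3, gave 1.78, and the mean of all 4 was -0.05. Tslp, an epithelial cytokine of allergic inflammation, read 1699 and 1973 against 2848 and 2875 (1.56 times lower).

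Chemokines moved in both directions. Ccl2, which attracts monocytes, read 1653 and 1812 with vemurafenib and 4885 and 4523 with PLX7904 (2.71 times lower, 2.40 to 3.07, adjusted p = 2.47e-06). Ccl20, a ligand of CCR6, read 366 and 435 against 827 and 814 (2.05 times lower). Of the neutrophil chemokines, Cxcl2 read 18942 and 18956 against 13236 and 13291 (1.43-fold higher), and Cxcl3 was 1.37-fold higher. These were the 4 calls among 10 chemokines tested. Cxcl1, another neutrophil chemokine, was tested and not called. Among 9 genes of prostaglandin metabolism 3 were higher and 1, the phospholipase gene Pla2g4a, was lower. The median log2 difference of the 9 was -0.19, and 6 of them had a difference below 0. The lower call ended without replicate 1 of vemurafenib and without replicate 2 of PLX7904. Ptgs2, the inducible cyclooxygenase, read 13070 and 12678 against 8059 and 9522 (1.47-fold), the synthase Ptges was 1.38-fold and the transporter Slco2a1 1.73-fold higher. Of 19 genes of the NF-kB pathway 3 were higher and 0 lower, with 1 higher on the mean of probe sets.

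Interferon-stimulated and antigen processing genes were lower where they differed. Of 12 tested, 0 were higher and 4 lower, 11 had a difference below 0, and the median was -0.30; median centring gave 2 lower calls. Gbp2, an interferon-induced GTPase, read 170 and 253 with vemurafenib and 730 and 710 with PLX7904 (3.43 times lower, 2.63 to 4.46). Ifit2, an antiviral protein, read 142 and 170 against 386 and 280 (2.10 times lower). Psmb10, a subunit of the immunoproteasome, was 1.40 times and Tapbp, which loads peptides on MHC class I, 1.35 times lower; median centring ended both calls (log2 -0.34 and -0.28), and the mean of probe sets that of Tapbp (-0.27). The p200 DNA sensors, also interferon-inducible, went the other way. Ifi202b read 6169 and 5950 against 1953 and 1854 (3.18-fold higher, 2.85 to 3.55), and Ifi209 3292 and 3148 against 1066 and 1008 (3.10-fold, 2.73 to 3.51). Their relative Ifi204 was not called (log2 -0.07, interval -0.58 to 0.43). The p200 genes are close copies of each other, so it is uncertain how far their probe sets share targets.

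Among 28 genes of TGF-beta and BMP signalling tested, 2 were higher and 5 lower, with a median of -0.08; median centring gave 5 higher and the mean of probe sets 1. The 5 lower ones were Sostdc1, Id1, Id2, Id3 and Smad6. Sostdc1, which is secreted and blocks BMP and WNT ligands, had the largest difference among the genes in the brighter part of the ranking by signal. It read 467 and 542 with vemurafenib and 2812 and 3000 with PLX7904 (5.74 times lower, 4.92 to 6.69, adjusted p = 4.04e-07), and its second probe set gave a log2 difference of -2.15 beside -2.52. Of the ID proteins, inhibitors of basic helix-loop-helix factors and common targets of BMP, Id1 read 5275 and 5734 against 8488 and 7994 (1.5 times lower), Id2 1999 and 2124 against 3322 and 3673 (1.69 times) and Id3 1882 and 1959 against 2828 and 2883 (1.49 times). Smad6, an inhibitory SMAD that BMP induces, read 161 and 167 against 327 and 308 (1.91 times lower). The ligand Bmp2 was higher, at 2588 and 2419 against 1460 and 1632 (1.62-fold higher, 1.42 to 1.85). Inhba, a subunit of activin, was 1.57-fold higher, with no call on the mean of its 2 probe sets (log2 0.57).

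Contractile and mesenchymal genes moved in both directions. Of the YAP and SRF targets 24% were called and of the mesenchymal genes 23.1%, against 13.4% of all genes tested. Acta2, smooth muscle actin, read 156 and 135 against 513 and 411 (3.12 times lower, 2.42 to 4.02); its other probe sets, at signals of 10.1 and 5.85, ended the call in the mean (log2 -0.69). It is the only smooth muscle marker of 6 that passed the minimum signal, and the part of another cell type in its difference was not tested. Vim, vimentin, read 24943 and 23447 against 18971 and 18681 (1.29-fold higher). Among 25 targets of YAP and SRF, 4 were higher and 2 lower, with 0 lower on the mean of probe sets. Tead4, a partner of YAP, was 1.6-fold and Cnn2, a calponin, 1.53-fold higher, whereas Thbs1, thrombospondin 1, read 1253 and 1282 against 2086 and 2226 (1.70 times lower), with no call on the mean of its probe sets (log2 -0.42). Cyp1b1, a cytochrome P450 controlled by the aryl hydrocarbon receptor, read 298 and 262 against 821 and 838 (2.95 times lower), also with no call on that mean (-1.30). Tiparp, another target of that receptor, was 1.29-fold higher. In the FOXO and insulin axis 4 of 20 were higher and 4 lower, with 2 higher without replicate 1 of vemurafenib, 2 lower with median centring, and 2 higher and 1 lower with the mean of probe sets; Ccng2, a FOXO target, was 1.74-fold higher and Irs1, the insulin receptor substrate, 1.43 times lower. The lists of MYC targets (22 genes), cholesterol and fatty acid synthesis (23), the Notch pathway (12), Kruppel-like factors (12), collagen chains (11) and mesenchymal genes (13) each had 1 to 2 members higher and 0 to 2 lower, and 0 to 3 in either direction when an array was left out. The share called ran from 4.35% for cholesterol and fatty acid synthesis and 4.55% for MYC targets to 36.4% for collagen chains. It was 16.7% for the Notch pathway and for Kruppel-like factors. With the mean of probe sets, collagen chains and mesenchymal genes each had 1 higher and 0 lower. For cholesterol and fatty acid synthesis, median centring gave 5 higher instead of 1.

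Secreted factors outside the lists were among the largest differences. Fgf18, a fibroblast growth factor, read 776 and 682 with vemurafenib and 165 and 176 with PLX7904 (4.21-fold, 3.44 to 5.17). Nppb, the natriuretic peptide BNP, read 10581 and 10318 against 3150 and 3310 (3.23-fold, 2.93 to 3.57, adjusted p = 4.04e-07). Ptn, the heparin-binding growth factor pleiotrophin, read 57.3 and 69.8 against 295 and 355 (4.92 times lower, 3.54 to 6.83), and its 2 other probe sets also read lower, at log2 -0.60 and -1.95. All of these were called also without the intensity trend. Ch25h, an enzyme that makes 25-hydroxycholesterol, read 175 and 205 against 623 and 649 (3.32 times lower).

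Further genes at the ends of the ranking have unrelated roles. Sdcbp2, a PDZ protein, was 3.14-fold, Nipal1, a magnesium transporter, 3.12-fold and Cpa4, a carboxypeptidase, 3.41-fold higher. Tppp3, a tubulin-binding protein, was 3.35 times lower, Sertad4 2.57 times, Ssbp2, a protein that binds single-stranded DNA, 2.54 times and Rab32, a RAB GTPase, 2.35 times. The very largest differences belonged to dim genes. Grip2, a scaffold protein, was called higher, at 155 and 67.3 against 12.4 and 13.0. Scrt1, a zinc finger repressor, was called lower, at 13.7 and 5.06 against 85.4 and 94.8. Their intervals are wide, and on the low side their signals lay below the minimum of 46.9. Each passed the filter only through the group where it was high, so no fold is given. The Grip2 call ended without replicate 1 of vemurafenib (log2 2.14), and that of Scrt1 without replicate 1 (-3.04) or replicate 2 (-2.89) of PLX7904 and with the mean of its probe sets (-1.74). Stfa2l1, a stefin, read 141 and 105 against 16.6 and 33.7, with both PLX7904 values below that minimum, and no fold is given for it.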

How the data were processed

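The values are the deposited intensity of 45101 probe sets on Affymetrix mouse arrays, on a linear scale, made by the authors with MAS5, per the submitters' processing notes, with no version stated there. Whole arrays were scaled: trimmed to the middle 96% of the values, each array had a mean of 499.8. Without detection calls, nothing states whether a dim probe set exceeds background.

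Of the probe sets, 34958 had 1 gene symbol in the platform annotation, 932 several and 9211 none (64 control probe sets included). Gene identifiers of 34754 matched a reference table of GRCm38.p6, and 0 symbols needed updating. For a gene with several probe sets, the one with the highest mean of the 2 group means was used. A pseudocount of 3.31, the 10th percentile of the values, was added before taking log2, and genes were fitted where the mean signal reached the overall median, 46.9. The 4 arrays were fitted with limma 3.58.1 in R 4.3.3 (lmFit, and eBayes with an intensity trend, 2 residual and 8.69 prior degrees of freedom), two-sided, with Benjamini-Hochberg adjustment over all 10902 genes and a threshold of 0.05. Fold changes refer to log2(signal + pseudocount) and so understate changes of dim genes, and intervals are 95% intervals of that fit. The number of arrays limits the precision: the median interval was 0.25 wide on either side, on the log2 scale. Python 3.11.15 with matplotlib 3.10.9 drew the figures.

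The groups, the members and the 45 gene lists were chosen with earlier results of these data known. Named genes are part of those picked by a rule: the 15 largest and 15 smallest differences among called genes whose arrays do not overlap, the 10 and 10 of the brighter genes, up to 4 called members at either end of each list and the 2 closest to 0, all members of the lists of ERK output, ERK feedback, EGF ligands, the cascade and CDK inhibitors, and Braf and Araf. Unnamed gene models were passed over. Egfr, Erbb2, Cdc20, Mki67, Pcna, E2f2, E2f8, Tyms, Manf, Krt10, Tgm1, Timp1, Il1a, Id3 and Bcl2l11 lie outside the rule and were chosen after their values were seen. Lists are described by counts and medians, with no test of a list.

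The labels do not say whether replicate numbers pair the arrays, and the main fit did not pair them. The difference between replicates 2 and 1 correlated at 0.017 between the groups, across genes, which cannot show how the cultures were set up. Alternatives covered the pseudocount, the filter, normalization between arrays, the variance model, the choice of probe sets, a replicate block, all 5 arrays in the fit (the only use of the vehicle array), each array left out, and the threshold.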

Additional observations from a re-analysis of the deposited data

How the results depend on the processing

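The 723 higher and 737 lower genes became 22 and 13 without the intensity trend, 356 and 317 with a gene's probe sets averaged, dim ones included, 1231 and 290 with median centring, 368 and 280 at an adjusted p under 0.01, and 254 and 255 with at least a 1.5-fold change. Without the filter on signal 18194 genes were tested, and the lower genes became 467 and the higher ones 511. Leaving out each array in turn gave 512 to 741 higher and 471 to 709 lower genes, with the lone array of a group assumed to vary like the other group. A block for the replicate number (replicate block) gave 774 and 814 genes and ended the call of no gene named in the report. Whether replicate numbers pair these arrays is not given in the labels. Quantile normalization, cyclic loess, robust fitting, other pseudocounts, the stricter filter, all 5 arrays and each probe set on its own kept both counts within 1.5 times. Under the mean of all probe sets 3 named genes changed sign: Egr3 (log2 -0.18), Trp53inp1 (-0.27) and Lama3 (-0.17). Without probe sets of the suffix x, s or a, 2 genes were called in the opposite direction, Pafah1b1 (0.38 to -0.49) and Sub1 (0.28 to -0.51). Of 128 called genes named with a value, 93 had a value under every alternative other than the missing trend and the thresholds, and 79 of these were called under each. The other 35 had no value under the stricter filter (20 genes) or without probe sets of the suffix x, s or a (18), 3 of them under both, and 18 of the 35 were called wherever they had one.

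Other probe sets of a gene gave the same sign for 83.3% of 699 in the higher genes and 89.6% of 675 in the lower genes, against 61.2% where the gene was not called. Genes near the minimum signal had the widest intervals, and 7292 genes below it were not tested, so that a difference in them was not detectable here.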
